A study of Homo sapiens with 4 samples.

Results

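DNA topoisomerases and condensin subunits were followed after knockdown of METTL14 in SK-N-BE(2), an established line of human neuroblastoma cells with MYCN amplification. The set held 10 genes of the 60671 gene IDs in the count table: TOP1, TOP2A, TOP2B, SMC2, SMC4, NCAPD2, NCAPD3, NCAPG, NCAPG2 and NCAPH. They were found by gene symbol, and every one of them passed the filter on low counts that left 16309 genes for testing. The group was chosen by function but with results of this same comparison known, and was selected on it in part. The members' differences between the groups are therefore given as a description, without p-values. Calls of members in the fit across all genes, at an adjusted p under 0.05, are likewise no test of them.

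The control cells carried a scramble short hairpin RNA (shNC) and the knockdown cells a hairpin against METTL14 (shMETTL14). The METTL14 protein pairs with METTL3 in the enzyme that writes m6A, N6-methyladenosine, into messenger RNA. There were 2 RNA sequencing libraries in each group, which the labels call replicates without saying whether they came from separate cultures, so the spread between them may be technical. In the study's methods, hairpins were delivered by lentivirus and infected cells were selected with puromycin. More than 1 hairpin against METTL14 was designed, and the labels do not say which one the sequenced cells carried.

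Topoisomerases relieve the twisting and tangling of DNA. TOP1 cuts a single strand and acts mostly ahead of RNA and DNA polymerases, whereas the type II enzymes TOP2A and TOP2B pass one double helix through another. TOP2A is known as the form of proliferating cells, needed to separate sister chromosomes, and is the target of etoposide and doxorubicin; TOP2B is also made in cells that no longer divide. Condensins are rings that fold chromosomes into loops before cell division. SMC2 and SMC4 form the arms of both rings, and condensin I adds NCAPD2, NCAPG and NCAPH, while condensin II adds the related NCAPD3, NCAPG2 and NCAPH2. NCAPH2, the condensin II kleisin that closes the ring, was not among the 10 members and is described beside them.

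The targeted gene stood at 37.8 and 39.4 CPM (counts scaled to library size after TMM adjustment) in the shNC libraries and at 15.5 and 16.7 CPM in the shMETTL14 libraries. METTL14 (chr4:118685368-118715433) thus fell to 41.7% of the control level, a log2 fold change of -1.26 (adjusted p = 3.6e-11, edgeR quasi-likelihood test). Depth was even, between 18925786 and 19886214 counts in genes per library. Across all genes, 52.5% were called at an adjusted p under 0.05. Scaling by upper quartile turned the 4438 higher and 4123 lower calls into 3550 and 4961, and shifted the median over all genes by -0.07 on the log2 scale. Neuroblastoma markers were abundant. MYCN stood at 2637 and 2596 CPM in shNC and at 3153 and 3193 CPM in shMETTL14. The 9 listed markers summed to between 5553 and 5684 CPM in shNC and between 5539 and 5592 CPM in shMETTL14. Of the fibroblast markers, LUM, PDGFRB and DCN were also present, and the 5 listed genes summed to between 409 and 409.9 CPM in shNC and between 396 and 405 CPM in shMETTL14. COL1A2 had at most 18 counts in a library, and the Schwann cell factor SOX10 had 0; the Schwann, leukocyte, endothelial and epithelial lists each summed to at most 6.02 CPM. The part of these genes in the results was not tested.

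TOP2A was the member with the greatest difference between the groups, and NCAPD2 came next. TOP2A stood at 42.3% of its control level and NCAPD2 at 67.9%. SMC2, SMC4 and NCAPG were lower by smaller steps, at between 88.7% and 92.6%. TOP1 and NCAPD3 were higher, at 114% and 120.2%. TOP2B, NCAPG2 and NCAPH lay between 95.7% and 106%. In the fit across all genes, 5 members were called lower and 2 higher, where the background was 25.3% of all genes lower and 27.2% higher. Since the members were picked with this contrast known, nothing is read from those counts.

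**Figure D1:**
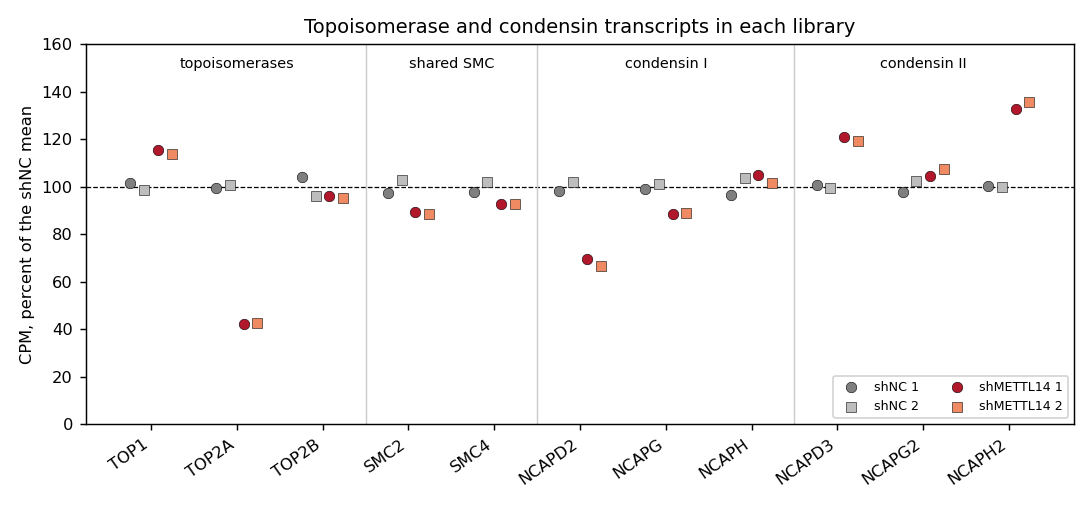
CPM of each gene in each library as a percent of that gene's shNC mean (y axis), for the 10 members and NCAPH2 (x axis, grouped by role). Circles are replicate 1 and squares replicate 2, grey for shNC and red or orange for shMETTL14. TOP2A stood at 42.3% and NCAPD2 at 67.9% of control, while NCAPD3 and NCAPH2 stood at 120.2% and 134%.

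TOP2A lies on chr17:40388516-40417950 on the minus strand in GENCODE 29 coordinates (GRCh38), and its longest coding transcript has 35 exons. It had 19383 and 18854 counts in the shNC libraries and 8048 and 8019 counts in the shMETTL14 libraries. On the CPM scale these were 972 and 985 against 411 and 417. Both knockdown libraries lay far below both controls, at 414 ± 3.98 against 979 ± 8.58 CPM (SD, n = 2). The log2 fold change was -1.24 with a standard error of 0.04. Only 4.29% of the genes tested had a lower log2 fold change, and 5.99% of all genes were called and at least 2-fold lower. TOP2A was also among the most abundant transcripts of these cells, at rank 131 of 16309 by mean CPM.

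TOP2B, the other type II enzyme, lies on chr3:25597905-25664907 on the minus strand. Its counts were 6711 and 5967 in shNC and 6101 and 5944 in shMETTL14, or 337 and 312 CPM against 312 and 309 CPM. The second control library and the first knockdown library were equal to 3 digits. Its log2 fold change was -0.06 with a standard error of 0.04. Over the alternative settings it lay between -0.13 (upper quartile scaling) and -0.01 (without shNC replicate 1). TOP1, on chr20:41028818-41124487, had 4553 and 4255 counts in shNC and 5094 and 4923 in shMETTL14. The 228 and 222 CPM of the controls lay below the 260.2 and 256 CPM of the knockdown libraries, a log2 fold change of 0.20 with a standard error of 0.04.

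Levels of different genes were compared per kb of exon. On this scale TOP2A exceeded TOP2B by 2.71-fold and 2.97-fold in the shNC libraries and by 1.24-fold and 1.27-fold in the shMETTL14 libraries. The ratio is taken within a library, so it does not move with the scaling between libraries, and its mean in the knockdown cells was 44.1% of that in the controls. Of the summed per-kb level of TOP1, TOP2A and TOP2B, TOP2A made up 56.4% and 57.9% in shNC and 34.5% and 35.1% in shMETTL14. The share of TOP1 went from 22.8% and 22.5% to 37.6% and 37.1%, and that of TOP2B from 20.8% and 19.5% to 27.9% and 27.7%. TOP2A was the highest of the 3 in the control cells on either length. In the knockdown cells TOP1 was highest per kb of exon (69.0 against 64.3 for TOP2A), but over the longest coding transcript TOP2A was, at 71.9 against 69.0 CPM per kb.

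The region before the TOP2A start is shown because it carries repeated CCAAT boxes, the letters bound by the NF-Y factor and common before genes of late cell cycle. The RefSeq promoter table (GRCh38.p14) was searched over 250 bases before each start, on both strands, for CCAAT, which reads ATTGG on the opposite strand. TOP2A and NCAPD2 each held 4 copies. At least 1 copy was found in 5 of the 14 member promoters (35.7%), at least 2 in 4 (28.6%) and at least 4 in 2 (14.3%). Of all 35116 promoters in the table, 0.874% held at least 4, 9.53% at least 2 and 32.0% at least 1. TOP2B held 2 copies before its outer start and none before its inner one. NCAPD3 also held 2 before 1 of its starts, NCAPH held 1, and none was found in the windows of TOP1, SMC2, SMC4, NCAPG and NCAPG2. Both SMC4 windows lie wholly inside annotated exons of SMC4, as do 164 of the 250 bases of 1 SMC2 window. The stretches below lie outside annotated exons, chr17:40417951-40418146 on the minus strand for TOP2A (196 bases, 3 of its 4 copies) and chr3:25664940-25665157 on the minus strand for TOP2B (218 bases, both copies), with each CCAAT box in capitals.

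TOP2A: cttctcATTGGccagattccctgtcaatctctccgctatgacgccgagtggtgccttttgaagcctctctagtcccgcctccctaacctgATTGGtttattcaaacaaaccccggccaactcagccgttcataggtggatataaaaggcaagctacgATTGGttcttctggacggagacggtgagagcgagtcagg

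TOP2B: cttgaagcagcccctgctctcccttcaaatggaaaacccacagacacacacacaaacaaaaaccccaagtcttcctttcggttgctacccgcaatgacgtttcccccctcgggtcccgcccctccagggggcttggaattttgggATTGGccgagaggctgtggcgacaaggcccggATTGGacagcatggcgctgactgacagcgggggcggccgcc

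The windows of NCAPD2 and of the inner NCAPD3 start fall inside annotated exons of the same genes, so only 25 bases around each box are shown. All run 5′ to 3′ on the gene's strand, and the boxes of NCAPD2 begin 199, 170, 70 and 30 bases before the start.

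NCAPD2, chr12:6493893-6493917: cggcgctgtgATTGGccggccgctc

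NCAPD2, chr12:6493922-6493946: gggcgtcgcgATTGGccgtcctgca

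NCAPD2, chr12:6494022-6494046: cctgccggggATTGGccggattctc

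NCAPD2, chr12:6494062-6494086: tgccttgctaATTGGtgcgtgttgt

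NCAPD3, chr11:134224063-134224087: gacgccggtgATTGGttgagcgaat

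NCAPD3, chr11:134223998-134224022: gtacgttgtgATTGGtccacaggaa

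The boxes of NCAPD2 and NCAPD3 all read ATTGG on the gene's strand, as did those of TOP2A and TOP2B. TTTGAA, the main form of the CHR element found in genes of late cell cycle, occurred 2 times before TOP2A on either strand and 1 time before NCAPD2, NCAPG, 1 start of SMC4 and the outer start of TOP2B. At least 1 copy was found in 5 of the 14 member promoters (35.7%), against 13.3% of all promoters, and at least 2 in 1.72% of all. Among promoters of other G2 and M phase genes, 15 of 33 (45.5%) held at least 1. When the 50 bases after each start were included, NCAPG2, the inner start of NCAPD3 and 1 start of SMC2 also held 1 copy. The variant TTTAAA was found before 1 of the 14 member promoters (11.3% of all), and TTCGAA before none (1.19% of all). A site for E2F (TTTGGCGC, TTTCGCGC or TTTCCCGC, either strand) was found before NCAPD3 alone among the members, against 2.32% of all promoters. Among 33 promoters of 25 other G2 and M phase genes, at least 1 CCAAT was found in 24 (72.7%), at least 2 in 13 (39.4%) and at least 4 in 3 (9.09%). For 22 promoters of 17 genes of cohesin and its regulators these numbers were 12 (54.5%), 6 (27.3%) and 0. The letters are a description of the windows. Whether any of them is bound in these cells, or bears on the members' levels, was not tested.

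The SMC arms that both condensins share were slightly lower. SMC4, the more abundant of the pair, lies on chr3:160399274-160434962 and had 11090 and 11119 counts in shNC and 10315 and 10119 in shMETTL14. Its 556 and 581 CPM in the controls lay above the 527 and 526 CPM of the knockdown libraries, with a log2 fold change of -0.11 and a standard error of 0.04. Over the alternative settings the log2 fold change of SMC4 lay between -0.18 (upper quartile scaling) and -0.08 (without shNC replicate 2). SMC2, on chr9:104094260-104141417, had 3391 and 3450 counts in shNC and 3064 and 2989 in shMETTL14. These were 170.1 and 180.2 CPM against 156 and 155 CPM, a log2 fold change of -0.17 with a standard error of 0.04. The per-kb ratio of SMC4 to SMC2 was 2.50 and 2.46 in shNC and 2.57 and 2.59 in shMETTL14, a change of 3.98% in its mean.

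Within condensin I the 3 subunits did not move together. NCAPD2, a HEAT-repeat subunit on chr12:6493356-6531955, had 6763 and 6734 counts in shNC and 4691 and 4414 in shMETTL14. Its 339 and 352 CPM in shNC stood clear of the 239.6 and 229 CPM in shMETTL14, and the log2 fold change was -0.56 with a standard error of 0.04. NCAPG, the other HEAT-repeat subunit, on chr4:17810902-17844862, had 204 and 208 CPM against 182 and 183 CPM, a log2 fold change of -0.17 with a standard error of 0.04. NCAPH, the kleisin, on chr2:96335787-96373845, had 100.1 and 108 CPM in shNC and 109 and 105 CPM in shMETTL14. Its groups overlapped, the only such case among the 10 members, where 75.5% of all genes tested had groups that did not overlap. The log2 fold change of NCAPH was 0.05 with a standard error of 0.05, and it turned to -0.02 under upper quartile scaling and to -0.01 without shNC replicate 1.

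Condensin II subunits were level or higher in the knockdown cells. NCAPD3, the counterpart of NCAPD2, lies on chr11:134150119-134225454 on the minus strand and had 4720 and 4472 counts in shNC and 5571 and 5403 in shMETTL14. The 237 and 234 CPM of the controls lay below the 285 and 281 CPM of the knockdown libraries, with a log2 fold change of 0.27 and a standard error of 0.04. NCAPG2, on chr7:158631311-158704829, had 168 and 176 CPM in shNC and 179.6 and 185 CPM in shMETTL14, a log2 fold change of 0.08 with a standard error of 0.04. Its log2 fold change lay between 0.01 (upper quartile scaling) and 0.12 (without shNC replicate 2) over the alternative settings. NCAPH2, on chr22:50508216-50523472, had 62.1 and 61.9 CPM in shNC and 82.4 and 84.2 CPM in shMETTL14. NCAPH2 rose by 0.42 on the log2 scale (standard error 0.05, adjusted p = 3.4e-07, edgeR), and its call held under every alternative run.

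Each condensin I subunit was lower relative to its condensin II counterpart in both knockdown libraries than in either control. NCAPD2 stood at 2.01 and 2.12 times NCAPD3 per kb in shNC and at 1.18 and 1.15 times in shMETTL14. NCAPG stood at 1.72 and 1.68 times NCAPG2 in shNC and at 1.44 and 1.41 times in shMETTL14. For NCAPH over NCAPH2 the ratios were 1.55 and 1.67 in shNC and 1.27 and 1.21 in shMETTL14. The mean ratio in the knockdown cells was thus 56.5% of control for the NCAPD pair, 83.8% for the NCAPG pair and 76.9% for the NCAPH pair. Summed over the 3 subunits, condensin I exceeded condensin II by 1.78-fold and 1.84-fold in shNC and by 1.29-fold and 1.25-fold in shMETTL14. The size of these ratios depends on the length used, although the change of a single pair between the groups does not. With the longest coding transcript in place of all exons, the mean ratio was 1.34 in shNC and 0.757 in shMETTL14 for the NCAPD pair, 1.35 and 1.13 for the NCAPG pair, and 1.21 and 0.930 for the NCAPH pair. The summed ratio was then 1.31 and 0.909. On that length NCAPD2, NCAPH and the condensin I sum lay below their condensin II counterparts in the knockdown cells, whereas over all exons they lay above them.

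**Figure D2:**
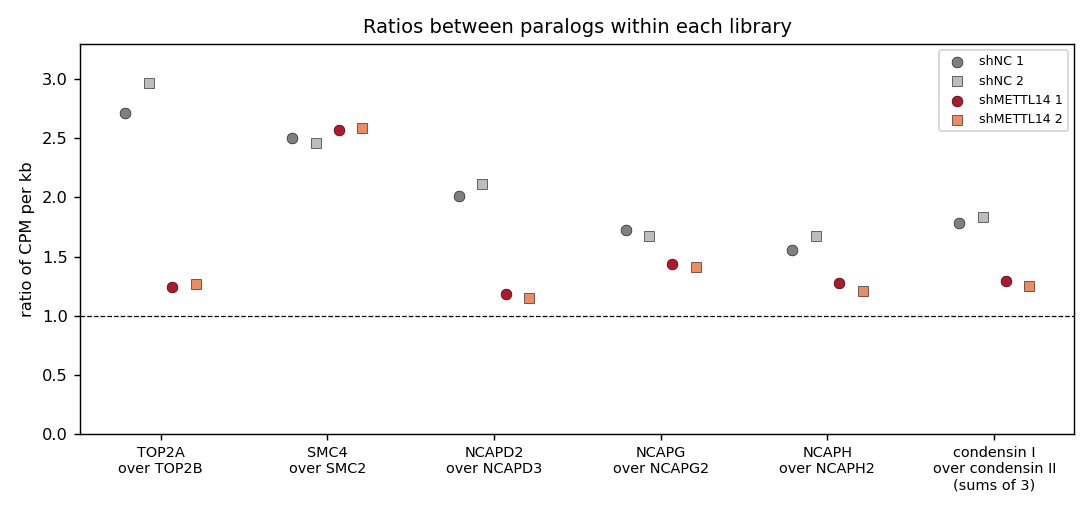
Ratio of CPM per kb of exon between related subunits (y axis) in each library, for 5 pairs of genes and for the sums of 3 condensin I and 3 condensin II subunits (x axis). Grey points are shNC and red or orange points shMETTL14; the dashed line marks equal levels. Every ratio but SMC4 over SMC2 was lower in both shMETTL14 libraries, with TOP2A over TOP2B at 1.24 and 1.27 against 2.71 and 2.97.

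Per kb, TOP2A stood highest in the control cells at 152 ± 1.33 CPM per kb (SD, n = 2). SMC4 followed at 67.2 ± 2.03, then TOP1 at 60.3 ± 1.18, TOP2B at 53.6 ± 2.94 and NCAPD2 at 53.3 ± 1.35. TOP2B and NCAPD2 were the only neighbours in this order whose libraries overlapped. NCAPG (41.9 ± 0.561), NCAPH (31.7 ± 1.59), SMC2 (27.1 ± 1.10), NCAPD3 (25.8 ± 0.254) and NCAPG2 (24.6 ± 0.806) made up the lower end. In shMETTL14 the order opened with TOP1 at 69.0 ± 0.826, TOP2A at 64.3 ± 0.619 and SMC4 at 62.2 ± 0.0866. NCAPD2 came after NCAPG there, at 36.1 ± 1.12 against 37.1 ± 0.156, and SMC2 came last at 24.1 ± 0.129. Part of this order rests on the length used: over the longest coding transcript, SMC4 led in shMETTL14 at 96.2 CPM per kb, above TOP2A at 71.9 and TOP1 at 69.0.

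**Figure D3:**
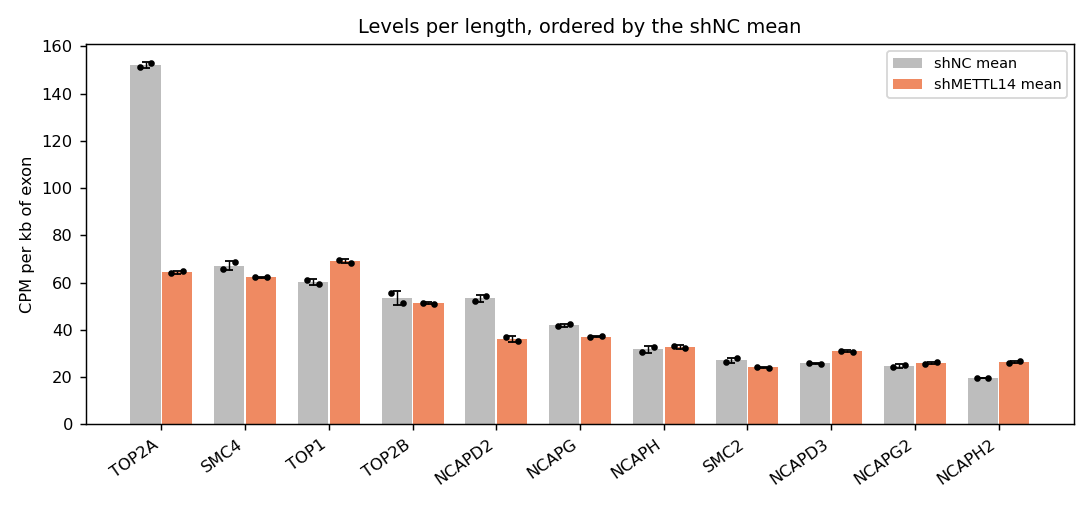
Mean CPM per kb of exon (y axis, bars from 0) for each gene (x axis, ordered by the shNC mean), grey for shNC and orange for shMETTL14. Error bars are the SD of 2 libraries and black points the libraries; TOP2A stood at 152 in shNC and 64.3 in shMETTL14, near SMC4 at 62.2.

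The genes whose values over the 4 libraries lay nearest to those of TOP2A were SLC39A10, PARD3B and TGFBR2. The measure was the Euclidean distance between centred log2 CPM values, over 11544 genes with a symbol and a mean log2 CPM of at least 2. SLC39A10, a zinc transporter, had 2155 and 2127 counts in shNC and 909 and 913 in shMETTL14, at a distance of 0.03. PARD3B and TGFBR2, a receptor for TGF-beta, had log2 fold changes of -1.24 and -1.28. TOP2B lay nearest to MEX3A, JARID2 and AFAP1, with distances between 0.010 and 0.012. SMC4 lay nearest to COIL, UBE2D2 and BCLAF1, whose log2 fold changes were between -0.12 and -0.11. With 4 points, of which 2 pairs are replicates, such likeness mostly reflects the size of the difference between the groups.

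GGACT is a common form of the sequence in which m6A is placed. The longest coding transcripts of the members held between 1 and 7 copies, against a median of 3 over 12800 protein-coding genes tested. TOP2B and NCAPH had 1 copy each, TOP1 had 3, TOP2A and NCAPD3 had 4, NCAPD2 and NCAPG2 had 5, SMC2 and SMC4 had 6 and NCAPG had 7. The 4 copies of TOP2A put it at the 62.4th percentile by number and the 33.7th by number per kb. Methylation was not measured in these libraries, so which copies carry m6A is not known from them. The study also mapped m6A in this line, with and without the knockdown, by MeRIP-seq (immunoprecipitation of methylated RNA). Those data were not used here.

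Overlapping genes limit some counts, because the strand setting of the counting is not given in the sources used here. NCAPG shares 33.1% of its exon bases with LCORL on the opposite strand, which had 905 and 1024 counts in shNC and 829 and 847 in shMETTL14. SMC4 shares 18.5% with TRIM59 (535 and 592 counts against 338 and 369) and 7.18% with IFT80 (530 and 540 against 436 and 458). These 3 neighbours had fewer counts in both knockdown libraries, as did NCAPG and SMC4. NCAPD3 shares 5.10% with JAM3 (3582 and 3378 counts against 4124 and 3975) and 2.73% with VPS26B (2653 and 2503 against 2921 and 2957), and both had more counts in the knockdown, as did NCAPD3. NCAPD2 shares 7.49% with MRPL51, which had 2584 and 2442 counts in shNC and 3033 and 3289 in shMETTL14, opposite in direction to NCAPD2. The part of shared reads in the members' values was not tested. TOP2A shares no exon base with another gene. The pseudogenes SMC4P1, NCAPD2P1, NCAPGP1 and NCAPGP2 had 0 counts in every library.

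Related complexes and regulators were described from 6 lists that share no gene with the 10 members, and 7 genes stand in more than 1 list. The lists were written with earlier results of these data known. Their counts and adjusted p-values come from the same comparison, so they are a description and no independent support. The counts below are to be read beside all genes tested, of which 25.3% were called lower, 27.2% higher and 52.5% in either direction. By mean CPM the members ranked between 131 and 2008 among all genes tested. Genes with more counts are called more easily, and shares at a matched level were not computed. Across 16309 genes the median log2 fold change was 0.00, and over the 10 members it was -0.09 (-0.16 under upper quartile scaling). Among 16 genes of the condensin II kleisin and regulators of condensin, 7 fell (43.8%), 2 rose (12.5%) and 7 were not called, with a median of -0.07. The mitotic kinases TTK (-0.35, adjusted p = 2.4e-06) and PLK1 (-0.31, adjusted p = 4.2e-06) and the cyclin CCNB2 (-0.27, adjusted p = 1.2e-05) fell most. Besides NCAPH2, AKAP8, a nuclear anchor protein that binds condensin, rose by 0.18 (adjusted p = 0.034), a call that was lost under 8 of 11 alternatives.

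Among 18 other topoisomerases and enzymes that repair or accompany them, 8 fell (44.4%) and 4 rose (22.2%), with a median of 0.00. The type IA enzymes TOP3B (0.31, adjusted p = 5.9e-04) and TOP3A (0.19, adjusted p = 0.034) rose, the latter losing its call under 8 of 11 alternatives. SPRTN, a protease for proteins trapped on DNA, rose by 0.59 (adjusted p = 5.2e-06). NBN (-0.74, adjusted p = 1.5e-10) and RAD50 (-0.65, adjusted p = 4.0e-05), subunits of the MRN complex that opens DNA end repair, fell. RMI2, which works with TOP3A and the BLM helicase, fell by 0.69 on the log2 scale (adjusted p = 2.6e-06).

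Cohesin, the related ring that holds sister chromatids together, had 8 genes lower (42.1%) and 2 higher (10.5%) of 19 tested, with a median of -0.08; SMC1B of the list was not tested. The share called in either direction, 52.6%, was that of all genes. STAG2, a subunit of the ring, fell by 0.70 on the log2 scale (adjusted p = 4.3e-12). The loader NIPBL (-0.37, adjusted p = 2.2e-07) and the acetyltransferase ESCO1 (-0.37, adjusted p = 5.1e-04) fell as well, while the acetyltransferase ESCO2 (0.49, adjusted p = 1.4e-06) and CDCA5, the sororin that guards cohesion (0.25, adjusted p = 8.2e-05), rose. Of the 9 genes of the SMC5/6 complex and its partners, 4 fell (44.4%) and 2 rose (22.2%), with a median of -0.02. SMC5 (-0.29, adjusted p = 1.0e-04), NSMCE1 (-0.29, adjusted p = 9.0e-04) and SLF2 (-0.25, adjusted p = 0.0023) fell, and NSMCE3 (0.38, adjusted p = 5.1e-04) and NSMCE4A (0.22, adjusted p = 0.0012) rose.

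Of 30 genes of G2 and M phase outside the set, 21 fell (70.0%, against 25.3% of all genes), 3 rose (10%, against 27.2%) and 6 were not called, and the median was -0.17. CENPF (-0.73, adjusted p = 3.6e-13) and CENPE (-0.60, adjusted p = 8.3e-11), both kinetochore proteins, and HMMR, a spindle protein (-0.72, adjusted p = 6.8e-12), fell most. Their log2 fold changes were smaller in size than the -1.24 of TOP2A. The increases were small, at 0.15 for CCNF (adjusted p = 0.023), 0.11 for KIF23 (adjusted p = 0.048) and 0.10 for CCNA2 (adjusted p = 0.044), and these calls were lost under 6, 10 and 8 of 11 alternatives. PRC1 and NUSAP1 had only 10 to 21 counts per library. Why they stood so far below the rest of the list was not tested. In bulk RNA, fewer cells in G2 and M phase and less of these transcripts per cell cannot be told apart. In separate assays after METTL14 knockdown, the study reported a longer G0-G1 phase by flow cytometry and less EdU staining. How those changes bear on the RNA values was not tested.

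Of 19 transcription regulators of the cell cycle tested, 9 rose (47.4%, against 27.2% of all genes), 3 fell (15.8%, against 25.3%) and 7 were not called, with a median of 0.11, and LIN37 was too low to test. The list mixes E2F factors, their TFDP partners and pocket proteins with MYBL2, FOXM1, LIN proteins and NF-Y subunits. Together these act at the entry to S phase and on G2 and M phase genes. E2F1 (0.75, adjusted p = 3.6e-10), MYBL2 (0.54, adjusted p = 3.8e-10), a partner of the complex that turns on G2/M genes, and the repressor E2F7 (0.53, adjusted p = 2.5e-06) rose most. RBL2, the pocket protein p130 of quiescent cells, fell by 0.64 on the log2 scale (adjusted p = 5.0e-10), and RBL1 by 0.21 (adjusted p = 0.017). NFYA, the subunit of NF-Y that reads the CCAAT letters, fell by 0.15 (adjusted p = 0.027). The calls of RBL1 and NFYA were lost under 3 and 5 of 11 alternatives. Under upper quartile scaling the list had 7 higher and 5 lower calls.

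**Figure D4:**
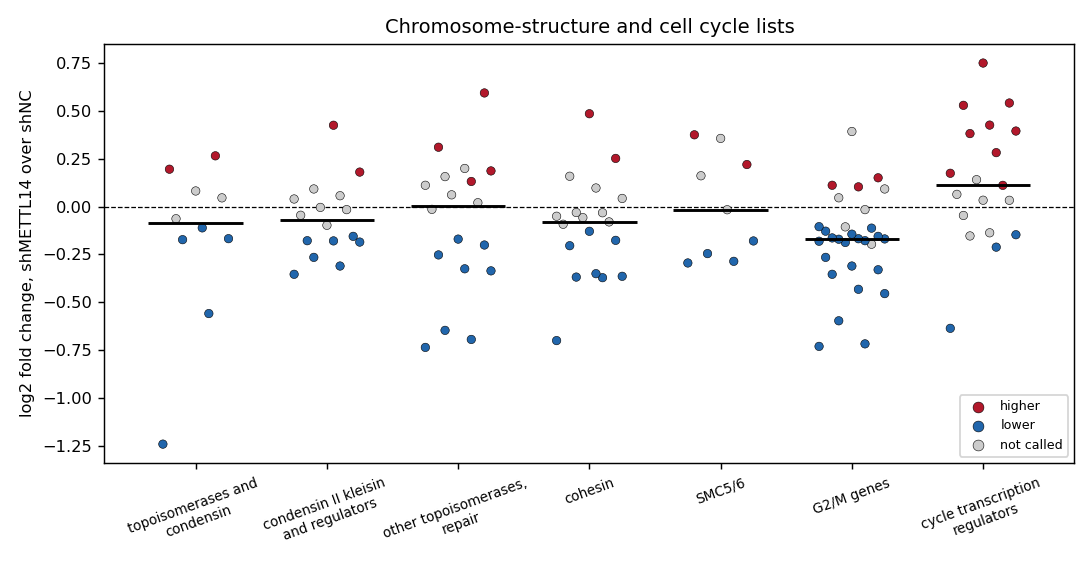
Log2 fold change of shMETTL14 over shNC (y axis) for each tested gene of the members and of 6 related lists (x axis). Red points were called higher, blue points called lower and grey points not called, at an adjusted p of 0.05 in edgeR; the black bar is the list's median and the dashed line the median of all genes. TOP2A at -1.24 lies below every gene of the other lists, the lowest of which is NBN at -0.74. The members and lists were chosen with earlier results of these data known, so the colours are a description.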

How the data were processed

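RNA of 4 libraries (2 shNC, 2 shMETTL14) was sequenced as paired ends on an Illumina NovaSeq. The authors deposited raw read counts per Ensembl gene, with no normalization. The submitters' processing notes name HISAT2 2.1.0, StringTie 1.3.6, HTSeq 0.13.5, edgeR and GRCh38, without their roles; the strand setting and annotation release were not given in the sources used here. The lines naming no gene (19.1% to 19.9% of counts) were left out. Of the 60671 IDs, 60401 were found in a gene name table.

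Counts were tested across all genes with edgeR 4.0.16 in R 4.3.3 (quasi-likelihood F-test, TMM, filterByExpr with a minimum count of 10 and total of 15, group as the only term), with Benjamini-Hochberg adjustment over 16309 genes and a call at an adjusted p under 0.05. The biological coefficient of variation was 3.45%. With 2 libraries in a group, the smallest two-sided p of an exact permutation test is 0.333, and calls therefore rest on the variance model shared across genes. Libraries of a group differed by more than sampling noise (mean chi-square per gene 2.80 in shNC, 2.30 in shMETTL14). The fit was also tested on simulated data.

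CPM per kb used the union of GENCODE 29 exons. Promoters came from RefSeq (GRCh38.p14), with no entry for NCAPH2; protein sequences were not used here. The members and lists were chosen with earlier results of these data known. Named were METTL14, the members, NCAPH2, up to 3 called genes with the largest increase and the largest decrease of each list, and the 3 genes nearest to TOP2A, TOP2B and SMC4. Alternatives were DESeq2 1.42.0, other scalings and filters, a replicate block and leaving out each library.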

Additional observations from a re-analysis of the deposited data

How the results depend on the processing

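The median log2 fold change of the 10 members was -0.09 and moved to -0.16 under upper quartile scaling and to -0.13 under library size alone; the median of all genes shifted by -0.07 and -0.05. METTL14 lay between -1.31 and -1.21 and the count of genes called between 7287 and 7458 when 1 library was left out, where the lone library is assumed to vary like the other group. DESeq2 called 6022 genes. Genes called in the 6 related lists numbered 68 of 104, and between 52 and 72 over the alternatives. By direction, the 3 higher calls of the G2 and M phase list became 0 under DESeq2, upper quartile scaling and library size alone, the 3 lower calls of the transcription regulators became 1 under DESeq2 and 5 under upper quartile scaling, and the 4 higher calls of the topoisomerase list became 2 under those 3 settings. The ratio of TOP2A to TOP2B in shNC was 2.84, or 2.81 over the longest coding transcript. Same-numbered libraries did not deviate together (Pearson's r = -0.0018 and Spearman's rho = 0.022 across 16309 genes, which are not independent replicates). With 2 libraries a group this check cannot exclude a shared batch, and the labels do not say what the number stands for. The replicate block gave 8926 calls, against 8561 without it, and a METTL14 log2 fold change of -1.26. Whether SMC4, TOP2B and NCAPG2 were called differed with the library left out or the scaling, and nothing is read from the members' calls. With 2 libraries a group, differences near 0.1 on the log2 scale are at the limit of what can be called for genes with counts like the members'. Genes with fewer counts need larger differences. EID3 of the SMC5/6 list, with 33 to 43 counts in a library, was not called at 0.36 (standard error 0.29).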
